A study of Mus musculus with 24 samples.

Results

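The interaction of chronic social stress with dexamethasone was measured in mouse prefrontal cortex as a difference of differences. For each gene, the response to dexamethasone (DEX minus saline, averaged over both stressed phenotypes) was taken on log2(normalized count + 1), and the DEX response of unstressed control mice was subtracted. All 14074 genes of the deposited table and all 24 libraries entered, of which 16 came from stressed and 8 from control mice. A positive interaction thus says that expression after DEX relative to saline was higher in stressed than in control mice, and a negative interaction that it was lower.

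The animals were adult male C57BL/6 mice, with 1 library of poly(A) RNA per mouse. Control mice were not defeated and were housed singly for some days before the injection. Stressed mice met aggressive CD1 males for 30 days and were clustered by how they behaved while in contact with the CD1 male outside attacks, into passive coping (PS, dep1 in the labels) and active coping (AS, dep2) animals, so the phenotypes were not assigned at random. Each of the 3 kinds of mice received saline (4 mice) or DEX at 2 mg/kg (4 mice), and cortex was collected 6 h later. A dissected block of prefrontal cortex was used without separating its cells, so that in these bulk samples fewer cells of a type and less RNA per cell cannot be told apart.

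DEX is a synthetic glucocorticoid that binds the glucocorticoid receptor, a transcription factor encoded by Nr3c1. The bound receptor enters the nucleus, where it can bind glucocorticoid response elements, pairs of inverted hexamers on DNA, and raise nearby genes such as Fkbp5, Tsc22d3, Sgk1 and Mt1, or act through other factors to lower inflammatory genes. Vessels, meninges, macrophages and glia of the brain express the receptor, as neurons do.

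The glucocorticoid receptor targets were examined first, since they check the labels. Fkbp5, a co-chaperone that damps the receptor, had 773, 761, 888 and 762 normalized counts in control mice with saline and 4198, 3908, 3447 and 3727 with DEX. In stressed mice it ran from 774 to 1088 with a median of 849 with saline and from 2931 to 4038 with a median of 3399.8 with DEX. The saline and DEX groups did not overlap in either kind of mouse, so every library matched its treatment label. DEX raised Fkbp5 by 2.26 (log2) in control and by 1.96 in stressed mice (limma adjusted p = 9.31e-13 and 9.36e-15), and the interaction was -0.30 ± 0.13 (SE, limma adjusted p = 0.268). Tsc22d3, which encodes the anti-inflammatory leucine zipper protein GILZ, rose by 1.0 and 1.10, an interaction of 0.096 ± 0.11 (95% confidence interval -0.14 to 0.33). Sgk1, a serum and glucocorticoid regulated kinase, rose by 0.67 and 0.80 with an interaction of 0.13 ± 0.13 (interval -0.14 to 0.39). The receptor gene Nr3c1 itself fell by 0.50 in control and by 0.33 in stressed mice, and its interaction was 0.17 ± 0.12 (interval -0.086 to 0.42).

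Over the 24 receptor targets followed here, 19 rose in control and 21 in stressed mice at a limma adjusted p under 0.1, and none fell. Over all genes, 4.03% rose and 2.46% fell with DEX in control mice (6.49% in all), and 7.14% rose and 8.63% fell in stressed mice (15.8% in all). None of the 24 targets passed the threshold for the interaction, beside 142 of 14074 genes (1.01%) over the whole table, and 5 targets had an unadjusted interaction p under 0.05, beside 15.2% of all genes (6.96% higher, 8.23% lower). The median interaction over the targets was -0.11, although their median DEX response was 0.68 in control and 0.75 in stressed mice, a difference of medians with the opposite sign. The summed level of the targets was 32242 to 36007 normalized counts in control mice with saline, 52323 to 61016 with DEX, 32076 to 37655 in stressed mice with saline and 48787 to 60906 with DEX. The sums with DEX thus covered much the same range in both kinds of mice.

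The target with the lowest interaction p was Lcn2, which encodes the iron-siderophore carrier lipocalin 2 of the acute phase. Control mice had 0, 1.23, 6.79 and 1.17 normalized counts with saline and 84.9, 80.7, 36.9 and 75.5 with DEX, and stressed mice ran from 0.745 to 6.31 with a median of 3.05 with saline and from 8.53 to 44.6 with a median of 17.2 with DEX. DEX raised Lcn2 in both kinds of mice with no overlap of the groups, by 4.76 in control and 2.31 in stressed mice. The interaction of -2.45 ± 0.70 (SE, limma adjusted p = 0.111) missed the threshold, and several saline libraries held fewer than 10 reads of this gene.

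Promoter windows of RefSeq genes (build GRCm38.p6, 250 bases before to 50 bases after the start of transcription) were searched on both strands for the glucocorticoid response element, written GNACANNNTGTNC (13 letters, where N is any base, and the same on both strands), and for the hexamer AGAACA, which reads as TGTTCT on the other strand. An element can overlap hexamers, so the 2 searches overlap. Sgk1 and Mt1, receptor targets whose windows hold the full element, are shown for orientation and were chosen after their DEX values were seen. Below them stand the windows of the protein-coding genes with the highest (Rps27rt, Syt2) and lowest (H2-Eb1, Gstm2) interactions that had a window in the table. Capitals mark the elements and hexamers found, read from 5′ to 3′ on the strand of the gene.
Sgk1: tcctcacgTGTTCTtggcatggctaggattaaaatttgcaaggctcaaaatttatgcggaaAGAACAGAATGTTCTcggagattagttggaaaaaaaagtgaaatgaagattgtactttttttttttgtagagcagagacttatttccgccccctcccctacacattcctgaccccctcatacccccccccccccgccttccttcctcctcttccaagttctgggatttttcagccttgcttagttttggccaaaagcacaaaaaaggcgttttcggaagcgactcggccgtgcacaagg
Mt1: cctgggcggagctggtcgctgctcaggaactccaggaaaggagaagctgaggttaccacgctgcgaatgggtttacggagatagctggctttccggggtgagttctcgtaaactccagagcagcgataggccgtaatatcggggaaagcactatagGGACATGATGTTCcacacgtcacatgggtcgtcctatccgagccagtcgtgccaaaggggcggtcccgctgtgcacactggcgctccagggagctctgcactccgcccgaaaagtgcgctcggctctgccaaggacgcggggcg
Rps27rt: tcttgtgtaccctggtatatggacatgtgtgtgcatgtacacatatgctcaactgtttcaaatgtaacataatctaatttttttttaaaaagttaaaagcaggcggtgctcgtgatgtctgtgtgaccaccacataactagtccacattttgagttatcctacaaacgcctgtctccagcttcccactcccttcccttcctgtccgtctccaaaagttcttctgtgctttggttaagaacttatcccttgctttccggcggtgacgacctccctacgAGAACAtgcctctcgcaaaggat
Syt2, first start: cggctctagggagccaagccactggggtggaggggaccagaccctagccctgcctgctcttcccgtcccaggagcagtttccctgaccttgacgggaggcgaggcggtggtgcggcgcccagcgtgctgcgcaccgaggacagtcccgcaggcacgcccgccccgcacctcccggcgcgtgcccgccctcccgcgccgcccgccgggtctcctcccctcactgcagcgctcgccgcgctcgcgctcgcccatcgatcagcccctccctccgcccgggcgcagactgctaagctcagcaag
Syt2, second start: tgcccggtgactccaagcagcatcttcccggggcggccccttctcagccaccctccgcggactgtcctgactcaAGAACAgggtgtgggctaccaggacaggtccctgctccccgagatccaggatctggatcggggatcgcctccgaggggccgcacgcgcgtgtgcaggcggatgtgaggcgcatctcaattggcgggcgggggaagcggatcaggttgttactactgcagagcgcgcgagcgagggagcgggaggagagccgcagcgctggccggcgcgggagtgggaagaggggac
H2-Eb1: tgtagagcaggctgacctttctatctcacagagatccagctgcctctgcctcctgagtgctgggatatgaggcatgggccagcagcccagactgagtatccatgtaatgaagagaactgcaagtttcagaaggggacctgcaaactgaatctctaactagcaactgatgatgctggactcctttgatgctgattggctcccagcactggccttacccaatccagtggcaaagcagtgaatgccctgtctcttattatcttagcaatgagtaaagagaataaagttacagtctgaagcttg
Gstm2: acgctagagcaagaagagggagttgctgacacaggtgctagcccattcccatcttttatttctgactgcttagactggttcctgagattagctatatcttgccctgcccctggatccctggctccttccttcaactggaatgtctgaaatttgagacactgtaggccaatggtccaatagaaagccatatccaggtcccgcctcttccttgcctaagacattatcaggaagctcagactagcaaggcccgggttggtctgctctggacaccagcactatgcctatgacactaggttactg

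These windows lie at chr10:21993640-21993939 (plus strand) for Sgk1, chr8:94178839-94179138 (plus) for Mt1, chr9:114982690-114982989 (minus) for Rps27rt, chr1:134646362-134646661 and chr1:134709050-134709349 (plus) for Syt2, chr17:34305617-34305916 (plus) for H2-Eb1 and chr3:107986371-107986670 (minus) for Gstm2. The full element began at base -188 of Sgk1 and at base -94 of Mt1, counted from the first transcribed base as 1. Rps27rt held a hexamer at base 28 and the second start of Syt2 one at base -176, whereas no match was found in the first start of Syt2, in H2-Eb1 or in Gstm2. Of 32851 windows in the table, 0.475% held the full element and 19.0% a hexamer. Of the 12960 windows of measured genes, from which the called genes come, 0.355% held the full element and 12.3% a hexamer. Among the windows of genes with a higher interaction, 0 of 59 held the full element and 10 (16.9%) a hexamer. Among those of genes with a lower interaction, 0 of 71 held the full element and 17 (23.9%) a hexamer. Of 34 windows of 22 receptor targets, 5 (14.7%) held the full element and 7 (20.6%) a hexamer. Fam107a entered these 5 with overlapping windows that held the same element, so that element was counted more than once. The 59 and 71 windows belonged to 41 and 55 of the called genes.

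At a limma adjusted p under 0.1, 142 of 14074 genes (1.01%) passed for the pooled interaction, 68 (0.483%) higher and 74 (0.526%) lower. The 74 genes with a lower interaction included members of the endothelial, basement membrane, microglia and MHC lists. The 68 with a higher interaction included neurofilaments, a synaptotagmin and the myelin gene Mag. By the deposited gene classes they also held 13 processed and 2 unprocessed pseudogenes, while none of the genes called lower was classed as a pseudogene. In 67 of the 68 higher genes the DEX difference was below 0 in control and above 0 in stressed mice. Of the 74 lower genes, 53 were above 0 in control and below 0 in stressed mice, 10 were above 0 in both and 11 below 0 in both. Opposite signs were seen in 84.5% of the called genes and in 48% of all genes, although the choice of genes by their interaction favours such signs. The DEX difference itself passed the threshold in both kinds of mice for 8 of the higher and 7 of the lower genes, in control mice alone for 31 and 27, and in stressed mice alone for 28 and 39. The median interaction was 0.60 over the higher and -0.69 over the lower genes.

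**Figure D1:**
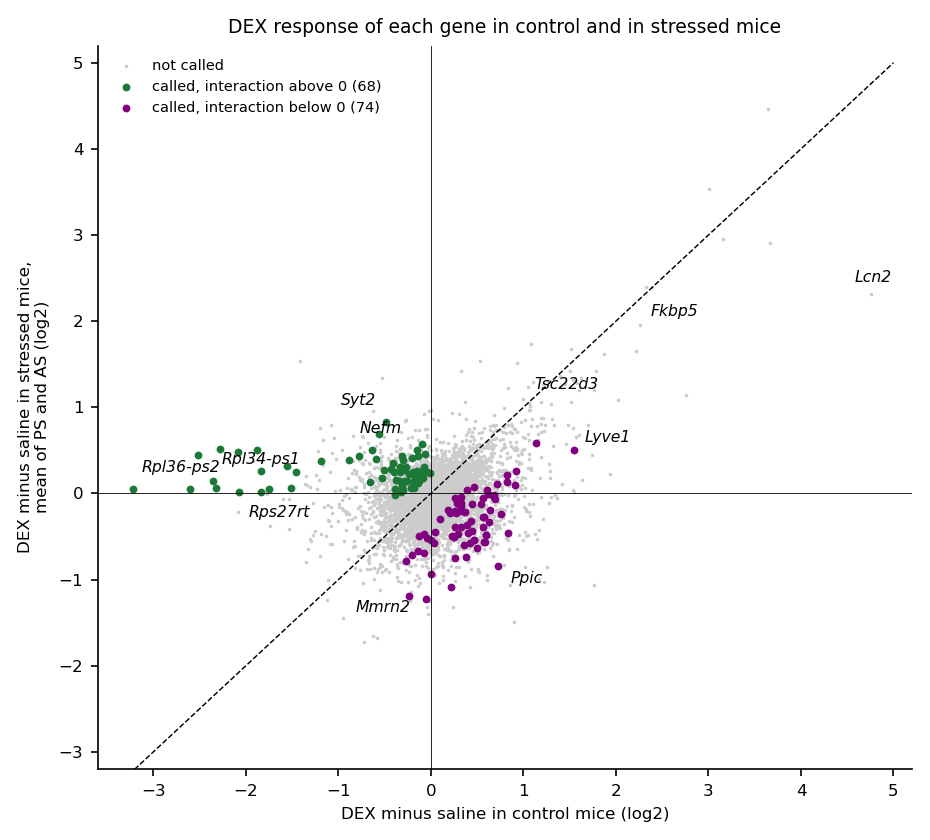
DEX minus saline (log2) of each of 14074 genes in control mice (x axis) and in stressed mice (mean of PS and AS, y axis). Green points are the 68 genes with a called interaction above 0, purple points the 74 below 0, grey points all others, and the dashed line marks equal responses. The green points lie mostly left of 0 and above it, the purple points mostly right of 0 and below it, and Fkbp5 and Tsc22d3 lie near the line.

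The number of called genes moved with single libraries. Leaving out 1 library at a time gave 4 to 835 called genes. The genes called lower numbered from 0, without control saline 117 or control DEX 101, to 462, and the higher genes were 34.4% to 100% of the calls. The count fell to 4 without the saline-treated control mouse 117, to 15 without 106 and 21 without 107, and to 10, 13 and 14 without the DEX-treated controls 101, 108 and 122. It rose to 835 without the fourth DEX-treated control, mouse 112. Among PS libraries it was 14, 76 and 75 without the saline mice 2, 28 and 62, and 21, 85, 47 and 425 without the DEX mice 6, 34, 52 and 56. Among AS libraries it was 10, 10 and 507 without the saline mice 8, 40 and 44, and 18, 75 and 342 without the DEX mice 38, 42 and 72. In the other 4 fits (control saline 109, PS saline 68, AS saline 14, AS DEX 60) the count was 133, 189, 193 and 162, within 1.5 times of 142. All 142 genes kept their sign and an unadjusted p under 0.05 in all 24 fits, while the median gene passed the adjusted threshold in 10 of 24. The 142 genes were chosen by a low p over all libraries, which favours keeping the sign and an unadjusted p under 0.05. Genes with an unadjusted p under 0.05 numbered 1510 to 2512 across these fits and 2138 with all libraries. On the recovered reads, the quasi-likelihood test of edgeR called 94 genes and the Wald test of DESeq2 called 497. After quantile normalization 60 genes passed, 38 higher and 22 lower, so that 63.3% of the calls were higher, compared with 47.9% here.

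**Figure D2:**
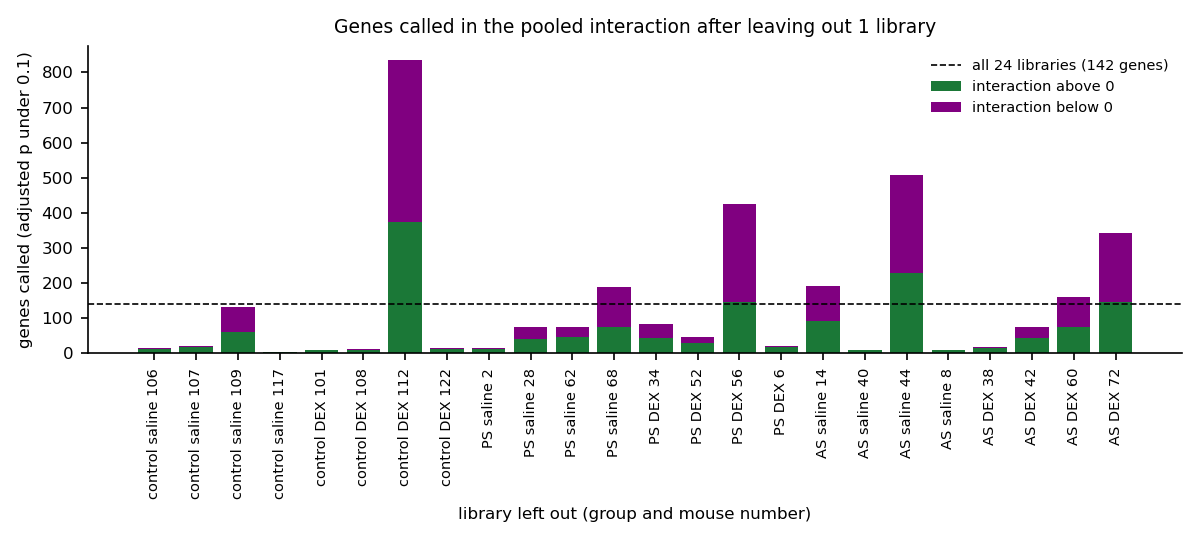
Number of genes with a called pooled interaction (y axis) after leaving out each of the 24 libraries (x axis, group and mouse number), with interactions above 0 in green and below 0 in purple. The dashed line marks the 142 genes called with all libraries, and the bars run from 4 without control saline 117 to 835 without control DEX 112.

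The lowest interaction among the called genes was that of Ppic, which encodes the protein-folding enzyme cyclophilin C. Control mice had 35.1, 30.7, 50.9 and 38.7 normalized counts with saline and 73.1, 61.4, 59.6 and 62.7 with DEX. In stressed mice Ppic ran from 58.5 to 80.6 with a median of 74.1 with saline and from 20.7 to 70.7 with a median of 42.7 with DEX. The DEX-treated controls were thus all above the saline-treated controls, the saline-treated stressed mice were also all above the saline-treated controls, and the DEX-treated stressed mice spread from below the saline-treated controls to within the range of the DEX-treated controls. DEX differed from saline by 0.73 in control mice (limma adjusted p = 0.105) and by -0.84 in stressed mice (adjusted p = 0.00182), and the interaction was -1.57 ± 0.30 (SE, limma adjusted p = 0.0381), with -1.54 in PS and -1.60 in AS. The call held in 22 of 24 fits that left out 1 library.

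Lyve1, a hyaluronan receptor of border macrophages and lymphatic endothelium, was one of the 10 lower genes whose DEX difference was above 0 in both kinds of mice. Control mice had 31.0, 33.2, 38.5 and 31.7 normalized counts with saline and 101, 95.1, 95.3 and 108 with DEX, with no overlap. Stressed mice ran from 31.5 to 63.3 with a median of 49.5 with saline and from 47.9 to 101 with a median of 61.2 with DEX, and these groups overlapped. DEX raised Lyve1 by 1.55 in control and by 0.50 in stressed mice (limma adjusted p = 1.48e-05 and 0.0179), so that the rise was smaller in stressed mice by -1.04 ± 0.24 (SE, limma adjusted p = 0.0762). The other macrophage gene of its list with a low interaction p, the mannose receptor gene Mrc1, had an interaction of -1.14 ± 0.37 and missed the threshold (adjusted p = 0.149 with limma).

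Hspb1 (chr5:135887919-135889563 on mm10), a small heat shock protein that protects actin filaments, had 93.1, 99.6, 95 and 122 normalized counts in control mice with saline and 219, 142, 123 and 148 with DEX, where mouse 101 was the highest. Among stressed mice, counts ran from 109 to 167 with a median of 132 with saline and from 69.9 to 144 with a median of 92.1 with DEX. DEX raised Hspb1 by 0.59 in control mice (limma adjusted p = 0.0687) and lowered it by 0.49 in stressed mice (adjusted p = 0.0139), an interaction of -1.08 ± 0.22 (SE, limma adjusted p = 0.0646). The other 15 heat shock protein genes of its list did not pass, and the list had a median interaction of 0.079, with Hspa4, a cytosolic chaperone of the Hsp110 kind, at 0.25 ± 0.09. Hspb8, a small heat shock protein gene outside the list, was also called. It differed by 0.82 in control and 0.14 in stressed mice, an interaction of -0.68 ± 0.16 (SE, limma adjusted p = 0.0762).

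**Figure D3:**
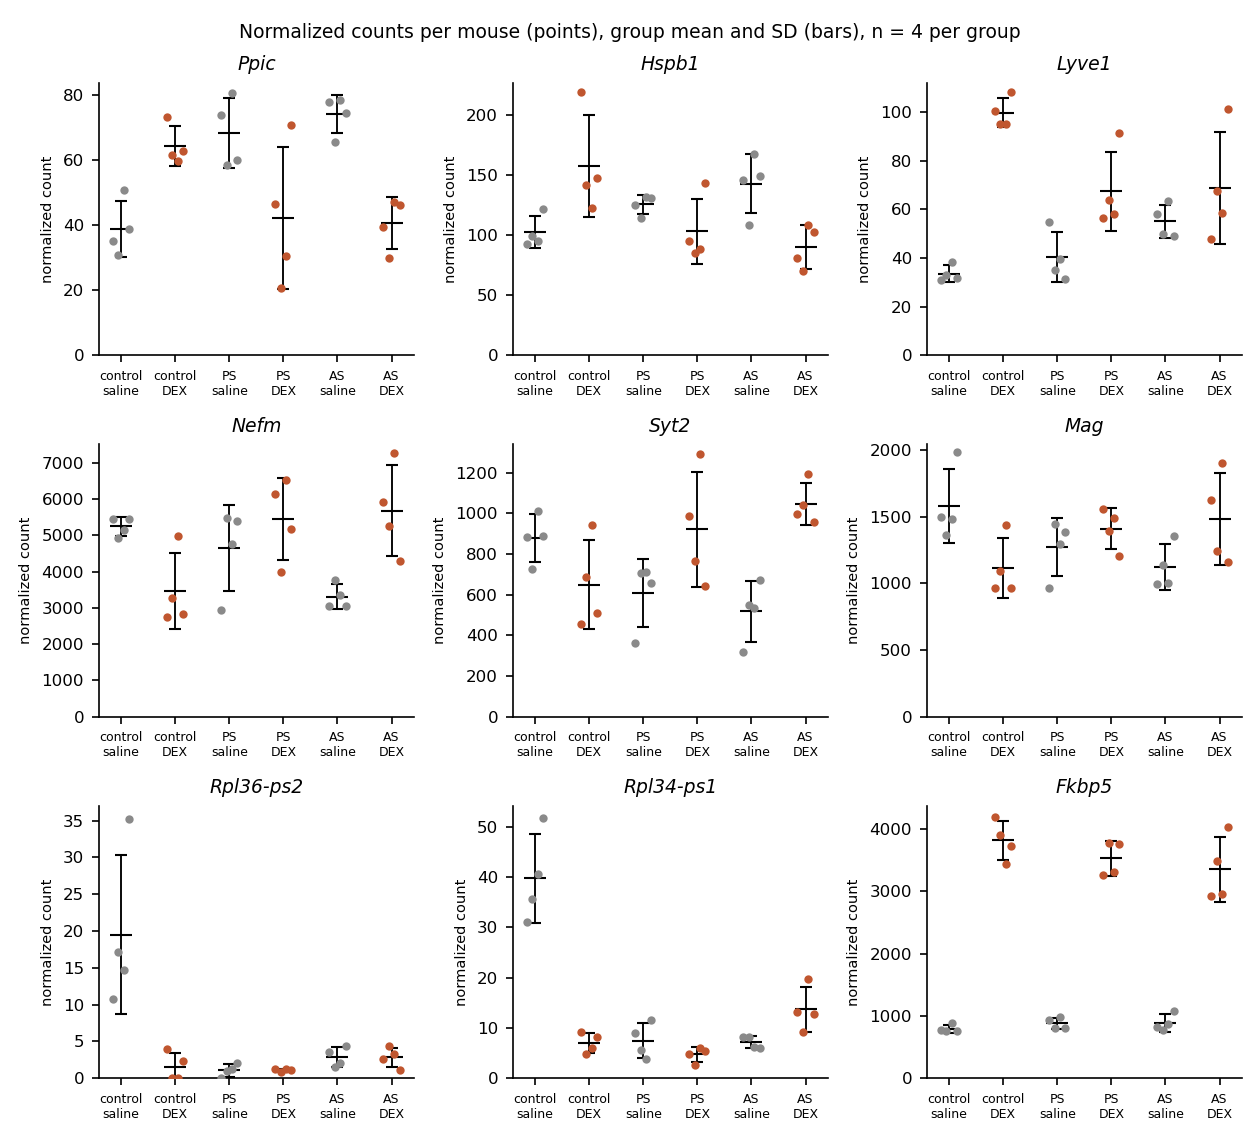
Normalized counts (y axes) of 9 genes per mouse in the 6 groups, with saline in grey and DEX in orange, a wide bar for the group mean and whiskers for the SD (n = 4 per group). Ppic and Hspb1 are higher with DEX in control and mostly lower with DEX in PS and AS mice, Nefm, Syt2 and Mag show the opposite arrangement, both pseudogenes are high in saline-treated controls, and Fkbp5 separates saline from DEX in all 3 kinds of mice.

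Mmrn2, an endothelial matrix glycoprotein, ran from 105 to 150.5 normalized counts in control mice with saline and 81.0 to 141 with DEX. In stressed mice it ran from 99.4 to 232 with a median of 152 with saline and from 39.5 to 97.9 with a median of 64.3 with DEX, with no overlap. DEX thus lowered Mmrn2 by 1.23 in stressed mice (limma adjusted p = 2.4e-05), with a difference of -0.05 in control mice and an interaction of -1.18 ± 0.30 (SE, limma adjusted p = 0.0965). Ly6a, a surface protein of brain endothelium also known as Sca-1, had an interaction of -1.13 ± 0.27 (SE, limma adjusted p = 0.0782), and Sema3g, a secreted semaphorin of arterial endothelium, one of -1.11 ± 0.28 (SE, limma adjusted p = 0.0944). Edn3, which encodes the peptide endothelin 3, was raised by 0.60 in control mice and lowered by 0.48 in stressed mice, an interaction of -1.08 ± 0.24 (SE, limma adjusted p = 0.075). The mesenchymal transcription factor Twist1 and the surface glycoprotein gene Msln (mesothelin) had interactions of -1.14 and -1.01.

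Gstm2, a glutathione transferase with close paralogs whose reads may be shared, had 74.2, 75.0, 72.4 and 45.8 normalized counts in control mice with saline and 162, 118, 91.8 and 109 with DEX. Saline mouse 117 was the lowest of its group and DEX mouse 101 the highest. Its interaction was -1.29 ± 0.33 (SE, limma adjusted p = 0.0993). The long noncoding RNA Gm10134 was at -1.14 (limma adjusted p = 0.0956). Gstm2 and Msln passed in 7 of 24 fits that left out 1 library, the lowest number among these 12 genes, and Ppic in 22, the highest. The remaining 62 lower genes had interactions from -1.0 to -0.31.

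The lists of marker genes place these single genes in a wider pattern. Of 27 endothelial markers, 4 passed the threshold with a lower interaction (Ramp2, Adgrl4, Ly6a and Slc2a1) and 24 had an unadjusted p under 0.05, all of them lower, compared with 0.526% called lower and 8.23% lower at an unadjusted p under 0.05 over all genes. The median interaction over the 27 genes was -0.71, beside 0.0014 over all genes. Their median DEX difference was 0.35 in control and -0.44 in stressed mice. In stressed mice 17 of them fell with DEX and 1 rose, and in control mice 3 rose and none fell. The adhesion receptor gene Adgrl4 had 391, 464, 539 and 359 normalized counts in control mice with saline and 798, 537, 558 and 697 with DEX. The stressed mice ran from 389 to 592 with a median of 481 with saline and from 251 to 536 with a median of 364 with DEX. With DEX, every stressed mouse was below every control mouse for this gene, while the saline groups overlapped, and its interaction was -0.95 ± 0.23 (SE, limma adjusted p = 0.0847).

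Mural cell markers, of pericytes and vascular smooth muscle, gave 0 calls of 16 measured and 11 genes with an unadjusted p under 0.05, all lower, with a median interaction of -0.55. Myh11, the smooth muscle myosin heavy chain, was at -1.57 ± 0.46 (limma adjusted p = 0.123). Leptomeningeal fibroblast markers gave 0 calls of 13 measured and 12 genes with an unadjusted p under 0.05, all lower, with a median of -1.01. Slc6a13, a GABA and taurine transporter of the meninges, was at -1.21 ± 0.36 (adjusted p = 0.123 with limma). Among 18 genes of basement membrane and matrix, Timp3 and Lamb2 passed and 12 had an unadjusted p under 0.05, with a median of -0.54. Timp3, an inhibitor of matrix metalloproteinases, had 2732, 2758, 3119.5 and 2633 normalized counts in control mice with saline and 5186, 4537, 3500.5 and 4764 with DEX, and ran from 2822 to 3667 with a median of 3153 in stressed mice with saline and from 2397 to 4059 with a median of 3017 with DEX. DEX raised Timp3 by 0.67 in control mice (limma adjusted p = 0.00215), where its groups did not overlap, and the difference in stressed mice was -0.029. The laminin subunit gene Lamb2 was lower by 0.47 in stressed mice and had an interaction of -0.77 ± 0.17 (SE, limma adjusted p = 0.0762). None of 19 collagen genes passed (median -0.34), and none of 21 genes of VEGF, angiopoietin and Notch signalling (median -0.33), where the Notch ligand Jag1 was at -0.75 ± 0.21 (limma adjusted p = 0.11).

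**Figure D4:**
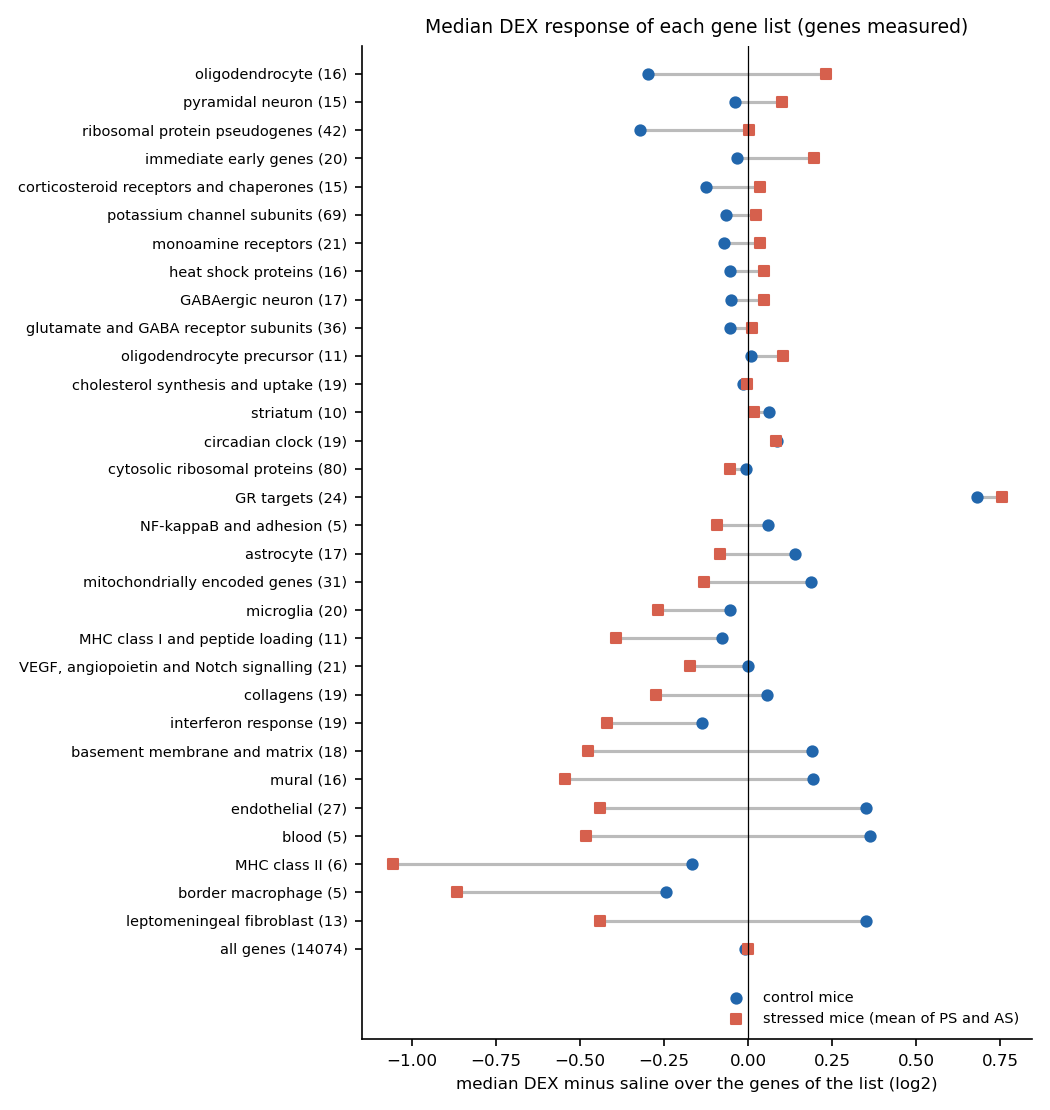
Median DEX minus saline (log2, x axis) over the measured genes of each list (y axis, number measured in parentheses), in control mice (blue circles) and in stressed mice (red squares), ordered by the median interaction. Endothelial, mural, leptomeningeal and blood lists lie right of 0 in control and left of 0 in stressed mice, the oligodendrocyte list has the reverse order, and the GR targets lie far right in both.

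Library values of the lists showed how the groups overlapped. As the mean over the 27 endothelial genes of log2 values centred on the 24 libraries, control mice ran from -0.094 to 0.27 with saline and 0.14 to 0.70 with DEX, where mouse 101 was the highest of all libraries. Stressed mice ran from -0.26 to 0.43 with saline and -0.71 to 0.30 with DEX, where PS mouse 34 was the lowest of all and PS mouse 56 the highest of its group. The summed endothelial level was 16573 to 21393 and 20322 to 29392 normalized counts in control mice with saline and DEX, and 14916 to 23792 and 12041 to 22238 in stressed mice. Leaving out control DEX 101 moved the median endothelial interaction to -0.60, the nearest to 0 of the 24 fits, and leaving out PS DEX 56 moved it to -0.79. The sign of the median held in all 36 other settings for the endothelial, mural, leptomeningeal and basement membrane lists. Hemoglobin and other blood markers moved alongside. Of 5 measured, none passed and 2 had an unadjusted p under 0.05, with a median interaction of -0.84, and the summed blood level was 1575 to 2687 and 1625 to 4386 normalized counts in control mice with saline and DEX, 1155 to 3140.0 and 1123 to 3599 in stressed mice. Hba-a1, an alpha globin gene with a near-identical copy, was at -0.97 ± 0.38 (limma adjusted p = 0.22). The part of residual blood in the vascular lists was not tested.

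**Figure D5:**
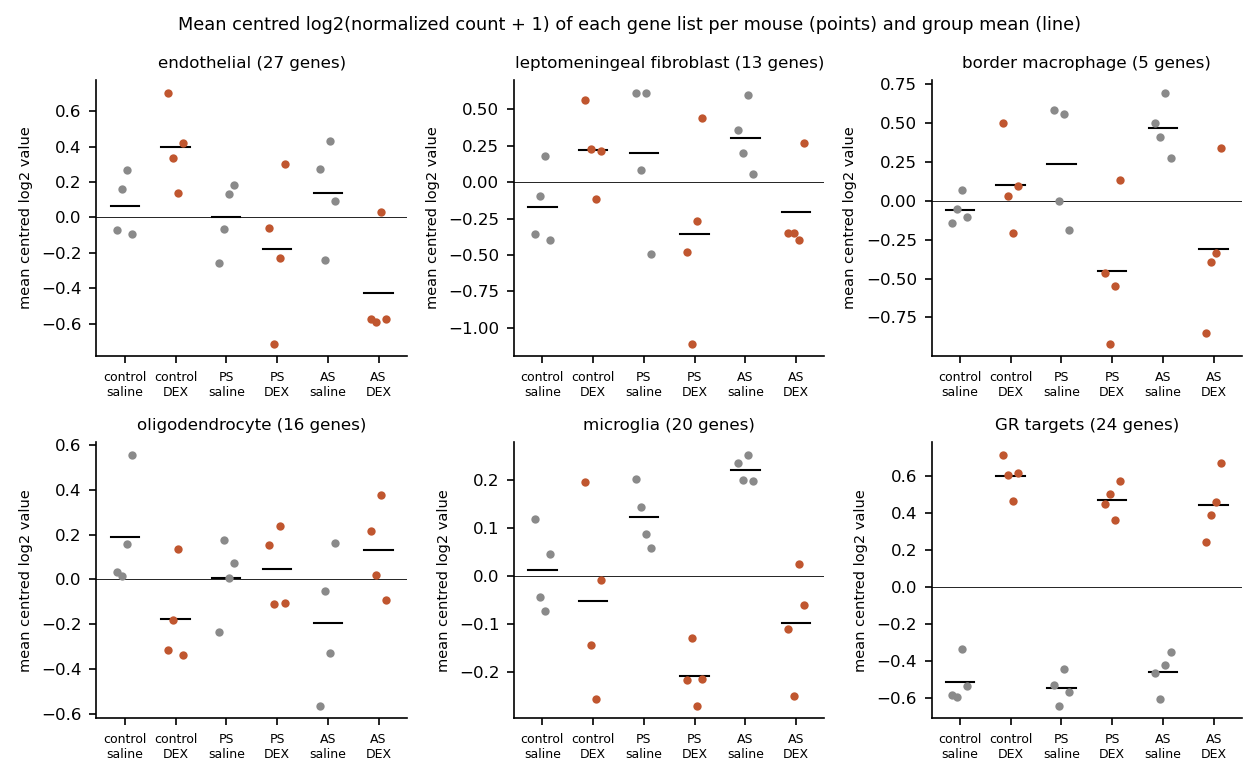
Mean over the genes of 6 lists of log2(normalized count + 1) centred on the 24 libraries (y axes), per mouse (points, saline grey, DEX orange) with the group mean (line) in the 6 groups. The endothelial points run from 0.14 to 0.70 in DEX-treated controls and -0.71 to 0.30 in DEX-treated stressed mice, and the GR target points separate saline from DEX in every group.

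Immune genes also had lower interactions, mostly through a fall in stressed mice. H2-Eb1, which encodes a beta chain of MHC class II, had 32.4, 66.4, 57.7 and 66.9 normalized counts in control mice with saline and 77.0, 43.4, 58.4 and 79.0 with DEX. In stressed mice it ran from 57.8 to 127 with a median of 99.3 with saline and from 36.4 to 58.8 with a median of 41.6 with DEX, with little overlap. DEX lowered H2-Eb1 by 1.08 in stressed mice (limma adjusted p = 0.000139), against a difference of 0.22 in control mice, and the interaction was -1.30 ± 0.31 (SE, limma adjusted p = 0.0782). It was the only one of 6 measured class II genes to pass, 4 had an unadjusted p under 0.05, and all 6 fell with DEX in stressed mice and none in control mice. The median interaction of the 6 was -0.91, and H2-Ab1, a class II beta chain of another locus, was at -1.25 ± 0.35. MHC genes are a family of similar sequences, so that reads may be shared among them. Of 11 genes of MHC class I and peptide loading, Tapbp (tapasin, which loads peptides) passed, with 836, 839.8, 788 and 852 and 915, 788, 706 and 749 normalized counts in control mice with saline and DEX. Stressed mice ran from 801 to 1020.3 with a median of 920.0 with saline and from 606 to 707 with a median of 673 with DEX, with no overlap, and the interaction was -0.40 ± 0.098 (SE, limma adjusted p = 0.0873). Among 19 interferon response genes Gbp3, a guanylate binding protein of host defence, passed at -0.95 ± 0.25 (SE, limma adjusted p = 0.0998), and the median was -0.35.

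Of 20 microglia markers, 3 passed with a lower interaction, among them Cx3cr1 and Siglech, and 10 had an unadjusted p under 0.05, all lower, with a median of -0.28. Cx3cr1, the fractalkine receptor, had 1267, 1209, 1179 and 1149 normalized counts in control mice with saline and 1152, 941, 872 and 1041 with DEX. Stressed mice ran from 1075 to 1568 with a median of 1407 with saline and from 676 to 891 with a median of 849 with DEX, with no overlap. DEX lowered Cx3cr1 by 0.78 in stressed mice (limma adjusted p = 1.14e-07), the control difference was -0.27 (adjusted p = 0.198), and the interaction was -0.51 ± 0.13 (SE, limma adjusted p = 0.0977). Siglech, a sialic acid binding lectin of microglia, had an interaction of -0.36 ± 0.094 (SE, limma adjusted p = 0.0998), and its saline-treated stressed mice were all above the saline-treated controls. The median DEX difference of the 20 genes was -0.053 in control and -0.27 in stressed mice, where 12 of them fell. Of 5 border macrophage markers, Lyve1 passed and 3 had an unadjusted p under 0.05, with a median of -1.0. Vcam1, an endothelial adhesion molecule, was the gene called among 5 of NF-kappaB and adhesion. It rose with DEX by 0.69 in control mice (limma adjusted p = 0.0021), differed by -0.019 in stressed mice and had an interaction of -0.71 ± 0.16 (SE, limma adjusted p = 0.0762).

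All 17 astrocyte markers had an interaction below 0, with a median of -0.25, and Aqp4, the water channel of astrocyte endfeet, was the one called. Its control mice had 2581, 2506, 2840.0 and 2989 normalized counts with saline and 2974, 2512, 2372 and 2723 with DEX, which overlapped. Its stressed mice ran from 2748 to 3706 with a median of 3189 with saline and from 2072 to 2462 with a median of 2279 with DEX, which did not overlap, and the interaction was -0.47 ± 0.11 (SE, limma adjusted p = 0.0762). Slc1a3, a glutamate transporter of astrocytes, was at -0.33 ± 0.10 and missed the threshold (limma adjusted p = 0.143).

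On the higher side stood 3 chains of neurofilaments, the structural filaments of axons. Nefm, the medium chain, had 5448, 4919.6, 5153 and 5460.2 normalized counts in control mice with saline and 2753, 3274, 4990.3 and 2844 with DEX. Among stressed mice, counts ran from 2936 to 5473 with a median of 3566 with saline and from 3979 to 7256 with a median of 5582 with DEX. Control DEX mouse 112 lay within the range of the saline-treated controls, and the other DEX-treated controls lay below it. DEX lowered Nefm by 0.64 in control mice (limma adjusted p = 0.0613) and raised it by 0.50 in stressed mice (adjusted p = 0.0155), an interaction of 1.14 ± 0.24 (SE, limma adjusted p = 0.0646). The heavy chain Nefh followed the same order, falling by 0.59 and rising by 0.40, with an interaction of 0.99 ± 0.20 (SE, limma adjusted p = 0.0646). The light chain Nefl (0.37 ± 0.096, limma adjusted p = 0.097) and internexin Ina (0.57 ± 0.12, adjusted p = 0.0646) also passed, and were added here after their values were seen. On mm10 Nefm (chr14:68082590-68124846, minus strand) spans Nefl (chr14:68083863-68089095, plus strand), so the separation of their reads rests on strand.

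Syt2, a calcium sensor for fast transmitter release, had 884, 725, 1014 and 891 normalized counts in control mice with saline and 457, 686, 945 and 512 with DEX. In stressed mice it ran from 316 to 712 with a median of 604 with saline, all below the saline-treated controls, and from 644 to 1291 with a median of 994 with DEX. Its interaction was 1.31 ± 0.30 (SE, limma adjusted p = 0.0762). Scn4b, the beta 4 subunit of sodium channels, fell by 0.78 in control and rose by 0.44 in stressed mice, an interaction of 1.22 ± 0.29 (SE, limma adjusted p = 0.0762). Fgf18, a fibroblast growth factor, was at 1.25 ± 0.29 (SE, limma adjusted p = 0.0762) and Astn2, a neuronal adhesion protein, at 0.75 ± 0.16 (SE, limma adjusted p = 0.075). Of 69 potassium channel subunits, 1 passed (1.45%, beside 1.01% of all genes), and 13 had an unadjusted p under 0.05 on the higher and 5 on the lower side. None of 15 pyramidal neuron markers passed (median 0.28), and Fezf2, a transcription factor of deep layer projection neurons, was at 1.14 ± 0.34 (limma adjusted p = 0.126). None of 17 markers of GABAergic neurons passed either (median 0.07, which took the opposite sign in 4 of 36 other settings).

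Mybpc1, a slow myosin binding protein, kept its call in all fits that left out 1 library, alone among the protein-coding genes called. Control mice had 217, 210.3, 221 and 236 normalized counts with saline and 175, 172, 188 and 181 with DEX, with no overlap. Stressed mice ran from 159 to 202 with a median of 179 with saline, all below the saline-treated controls, and from 195 to 266 with a median of 229 with DEX, all above the DEX-treated controls. The difference was -0.30 in control (limma adjusted p = 0.0749) and 0.38 in stressed mice (adjusted p = 0.000284), and the interaction of 0.69 ± 0.12 (SE, limma adjusted p = 0.0159) was called in all 24 of these fits. The others called in all 24 were the pseudogenes Rpl34-ps1, Gm8129 and Gm13340, the latter pair named after their values were seen.

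Oligodendrocyte genes had interactions above 0 throughout. Of 16 markers, Mag passed and 12 had an unadjusted p under 0.05, all higher, with a median of 0.57 and a range from 0.14 to 0.90. Mag, the myelin-associated glycoprotein, had 1497, 1361, 1483 and 1986 normalized counts in control mice with saline and 964, 1091, 1437 and 962 with DEX. The stressed mice ran from 966 to 1447 with a median of 1215 with saline and from 1159.5 to 1903 with a median of 1439 with DEX. Saline-treated control 117 was the highest of all libraries for Mag, and the groups overlapped. DEX lowered Mag by 0.51 in control mice (limma adjusted p = 0.0746), and its interaction was 0.78 ± 0.20 (SE, limma adjusted p = 0.0915). The median DEX difference of the 16 genes was -0.30 in control mice, where 5 of them fell and none rose, and 0.23 in stressed mice, where 5 rose and 2 fell. Fa2h, which hydroxylates the fatty acids of myelin lipids, was at 0.64 ± 0.18 (limma adjusted p = 0.114). The median interaction of the list was 0.42 without control saline 117 and 0.67 without control DEX 112, the extremes of the 24 fits. None of 11 oligodendrocyte precursor markers passed, and their median of 0.046 took the opposite sign in 4 of 36 other settings. Galnt6, a sugar transferase of mucin-type glycosylation, was called at 0.79 ± 0.21. Adssl1, an enzyme of purine nucleotide synthesis (0.72 ± 0.18), and Plekhh1 (0.70 ± 0.16) were also called. The protein-coding gene Cadps2 was called at 0.77 ± 0.20 (SE, limma adjusted p = 0.0944), above Astn2, Adssl1, Plekhh1 and Mybpc1. It was left out of the named genes because its symbol ends like that of a pseudogene. The 39 other genes called higher, with pseudogenes and Cadps2 left out, had interactions from 0.24 to 0.67.

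The largest values on the higher side were those of ribosomal protein copies, whose counts are uncertain because their reads can also align to the parent gene. Rpl34-ps1 had 31.0, 35.7, 40.7 and 51.7 normalized counts in control mice with saline and 9.14, 4.82, 5.96 and 8.13 with DEX. Stressed mice ran from 3.84 to 11.6 with a median of 7.16 with saline and from 2.59 to 19.8 with a median of 7.64 with DEX. The saline-treated controls were thus above every other library, and the other 3 sets of mice overlapped. The interaction was 2.51 ± 0.38 (SE, limma adjusted p = 0.00585), made of -2.36 in control and 0.15 in stressed mice. Rpl36-ps2 (3.27 ± 0.62), Rpl19-ps7 (2.95 ± 0.52) and Rpl17-ps8 (2.79 ± 0.52) had the highest interactions of all called genes. They held 10.8 to 35.2, 22.9 to 82.6 and 16.2 to 82.2 normalized counts in saline-treated controls and fewer in the other libraries, down to 0 for Rpl36-ps2, apart from 19 of Rpl17-ps8 in AS DEX 60, which was above the lowest saline-treated control. The labels give no preparation batch, so a batch of these 4 control libraries and their group cannot be told apart. At such counts the value on the log2(count + 1) scale depends on the added 1 and understates the change. The protein-coding retrocopy Rps27rt (chr9:114982366-114982739 on mm10), a copy of ribosomal protein S27, had 78.3, 76.2, 206 and 103 normalized counts in control mice with saline and 31.3, 19.3, 28.6 and 40.7 with DEX. It ran from 15.4 to 39.4 with a median of 28.5 in stressed mice with saline and from 12.2 to 51.2 with a median of 30.1 with DEX, an interaction of 1.85 ± 0.39 (SE, limma adjusted p = 0.0688). Of 42 ribosomal protein pseudogenes, 7 passed, all higher, and the median was 0.27. In contrast, none of the 80 parent cytosolic ribosomal protein genes passed, and their median of -0.056 took the opposite sign in 1 of 36 other settings. Of the 42, 12 were lower in stressed than in control mice with saline and 12 fell with DEX in control mice, whereas none fell with DEX in stressed mice.

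The interaction can also be read as the effect of stress under each injection. Stressed and control mice differed in 210 genes with saline (1.49% of all genes, 102 higher and 108, or 0.767%, lower in stressed mice) and in 361 genes with DEX (2.57%, 120 higher and 241, or 1.71%, lower). Among the 74 genes with a lower interaction, 73 were above control with saline and below control with DEX, and 39 of the 74 passed with DEX and 10 with saline. Among the 68 higher genes, 58 were below control with saline and above it with DEX, and 30 passed with saline and 14 with DEX. The stress differences with saline and with DEX had opposite signs in 92.3% of the called genes and in 46.3% of all genes. The choice of genes by their interaction favours such signs. Both stress contrasts passed for 1 of the 142. For the endothelial list the median difference between stressed and control mice was 0.039 with saline and -0.72 with DEX, where 21 of 27 genes were lower in stressed mice. For the leptomeningeal list it was 0.45 and -0.56, for the MHC class II list 0.53 and -0.42, and for the oligodendrocyte list -0.29 and 0.26. The ribosomal pseudogenes had a median of -0.38 with saline and 0.08 with DEX. Both counts moved with single libraries. With saline, the count was 54, 63 and 73 without the saline-treated controls 106, 107 and 109, 99 and 129 without PS saline 2 and 28, and 325 without AS DEX 60. With DEX, it was 8, 13, 2 and 851 without the DEX-treated controls 101, 108, 122 and 112, 138 without PS DEX 34, 696 without AS saline 44, and 219, 203 and 655 without AS DEX 38, 42 and 72.

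PS and AS mice were then set side by side. Their interactions share the 8 control libraries and so are not independent of each other. Taken alone, the PS interaction gave 0 called genes (0%) with limma, 1404 with an unadjusted p under 0.05, 0 calls with edgeR and 23 with DESeq2. The AS interaction gave 49 (0.348%) with limma, 77 with edgeR and 439 with DESeq2. Over the 74 lower genes of the pooled interaction the median was -0.61 in PS and -0.76 in AS, and over the 68 higher genes 0.54 and 0.65. These genes were chosen by the mean of both interactions, which favours the same sign in PS and AS, so the medians do not test their agreement. The direct test of the DEX response of AS minus PS compares no control mean, although the control libraries enter its estimate of the spread. It called 0 genes with limma (0%), edgeR and DESeq2, with an unadjusted p under 0.05 for 344, 369 and 378 genes. Of the 142 pooled genes, 8 had an unadjusted p under 0.05 in the limma test of this difference (2.44% of all genes did). The endothelial list had a median of -0.49 in PS and -0.89 in AS, the leptomeningeal list -0.96 and -0.98, and the oligodendrocyte list 0.43 and 0.71. Ly6a was at -0.96 in PS and -1.30 in AS, Nefm at 0.89 and 1.40, and Mybpc1 at 0.71 and 0.66.

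In several other programs no gene passed for the interaction. Of 20 immediate early genes, 5 had an unadjusted p under 0.05, all higher (median 0.21), and 7 rose with DEX in stressed and none in control mice. Among these, Arc, which regulates glutamate receptors at active synapses, rose with DEX by 1.06 in stressed mice (limma adjusted p = 1.56e-05) against a difference of 0.37 in control mice, an interaction of 0.69 ± 0.25 (adjusted p = 0.197). None passed among 15 genes of corticosteroid receptors and chaperones (median 0.15, 4 higher and 1 lower at an unadjusted p under 0.05), where the co-chaperone Stip1 was at 0.24 ± 0.083. None passed among 19 clock genes, with Per3 at -0.32 ± 0.16, or 19 of cholesterol synthesis and uptake. The same held for 36 glutamate and GABA receptor subunits, with Grm8 at 0.57 ± 0.16, and for 31 mitochondrially encoded genes, with a median of -0.27 and 7 lower at an unadjusted p under 0.05. Among 21 monoamine receptors the serotonin receptor gene Htr1a rose with DEX by 0.60 in stressed mice with no overlap of the groups, and differed by 0.13 in control mice, an interaction of 0.47 ± 0.16 (limma adjusted p = 0.162).

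Genes named in the study's text for this cortex were followed for their interaction. The long noncoding RNA 2900052N01Rik was the one that passed. It had 691, 701, 714 and 761 normalized counts in control mice with saline and 1071, 835, 803 and 897 with DEX, ran from 845 to 1068 with a median of 943 in stressed mice with saline and from 702 to 942 with a median of 884 with DEX, and had an interaction of -0.47 ± 0.10 (SE, limma adjusted p = 0.075). The histamine receptor gene Hrh1 fell by 0.45 in control and by 0.45 in stressed mice, an interaction of -0.0074 with a 95% confidence interval of -0.28 to 0.26. For the alpha-2A adrenergic receptor gene Adra2a the DEX rise was 1.15 and 0.78 and the interval of the interaction -0.77 to 0.03. The interval was -0.22 to 0.51 for the axon guidance gene Slit2, -0.46 to 0.34 for the serotonin receptor gene Htr2a and -0.37 to 0.28 for the neurotrophin gene Bdnf. It was -0.76 to 0.10 for the integrin gene Itgb8, 0.023 to 0.74 for the myelin lipid enzyme gene Ugt8a and -0.37 to 0.22 for the ciliary rootlet gene Crocc. None of these other genes passed.

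The tissue and the libraries bear on these values. Between 21121869 and 59439645 gene-assigned reads were recovered per library, with a median of 24420129, and was higher in AS (group medians 34242531 with saline and 37876626 with DEX) than in the 4 other groups (22869703 to 24187702). Markers of cortical pyramidal neurons were present in every library, with a summed level of 227540.0 to 304932 normalized counts in saline-treated controls. Markers of neighbouring tissue varied between single libraries of the same group. Over 4 measured olfactory bulb markers, control mice had a summed level of 108 to 4218 normalized counts with saline and 172 to 833 with DEX, and stressed mice one of 115 to 1516 with saline and 118 to 3482 with DEX. Eomes, which marks mitral and tufted cells, reached 609 normalized counts in control saline 117 and 510.2 in PS DEX 34, compared with medians of 12.8 and 3.45 in stressed mice with saline and DEX. None of the measured markers of olfactory bulb, choroid plexus (1 of 8 measured), motile cilia (3 of 12) or striatum (10 of 13) passed for the interaction, and their part in the results was not tested. The 4 libraries of array weight under 0.5 (control DEX 101, PS DEX 34, AS saline 44 and AS DEX 60) varied most from their groups over all genes, and 32 genes passed without them, a choice made after the data were seen.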

How the data were processed

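RNA-seq of mouse prefrontal cortex was analysed in 24 libraries, 1 per mouse, in 6 groups of 4. Per the labels and the study's methods, the authors made stranded poly(A) libraries, trimmed read pairs with fastp 0.20.1, mapped these to mm10 with HISAT2 2.2.1, assigned them to genes of GENCODE vM22 using featureCounts (Subread 2.0) and scaled them with DESeq2 1.36.0. The deposited signal values were gene counts divided by 1 size factor per library, and whole reads could be recovered from 100% of them within 0.01. No deposited value column was left without a sample (0 unmapped). The authors also deposited tables of their own fold changes and p-values, of which only the gene coordinates and classes were used.

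Under R 4.3.3, linear models of log2(normalized count + 1) were fitted with limma 3.58.1, whose empirical Bayes step let the variance follow the mean level. The model held 1 mean per group over all 24 libraries, with Benjamini-Hochberg adjustment over 14074 genes and calls at an adjusted p under 0.1. Because of the added 1, changes of genes with few counts are understated. Library values are normalized counts, and intervals are 95% limits from the moderated t distribution of limma with 23.5 degrees of freedom. Recovered reads were tested with edgeR 4.0.16 and DESeq2 1.42.0 as alternatives. Other alternatives were a pseudocount of 8, minimum levels (a mean of 100 normalized counts, or 10 reads in every library), TMM scaling, quantile normalization, robust eBayes, array weights, library size as a covariate, 4 group means, PS or AS alone, and each library left out in turn. Counts were simulated from the real means and depths for the pooled interaction over 14074 genes. There limma recovered 88% of 100 genes changed by 1 on the log2 scale and 100% of 100 changed by 2, with 9.62% false calls. DESeq2 recovered the same shares with 16.8% false calls. The simulation drew each gene independently, without shifts shared by the genes of a library, and changed only genes above a minimum mean count. These rates may therefore not hold for the real libraries. All 36 pairs of libraries within groups differed beyond counting error, where the chi-square statistic divided by the number of genes came to 5.74 at the lowest and 81.8 at the highest.

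Named genes were the 12 called genes with the highest and the 12 with the lowest interaction that were not set apart as pseudogenes. The 3 highest pseudogenes and the 1 or 2 members of each list with the lowest interaction p were added. Fkbp5, Tsc22d3, Sgk1 and Nr3c1 served as a check of the labels, and genes the study names were followed. Pseudogenes were set apart by symbol, deposited class or RefSeq annotation. The symbol rule also took out protein-coding genes whose symbols end in ps and a number, among them the called gene Cadps2. The values of 3 list members are not reported here. The gene lists and the genes followed were chosen with earlier results of these data known. Promoter windows came from RefSeq on GRCm38.p6, the patch release of mm10, matched by symbol. Residual blood, dissection and time of day were not recorded in the labels.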

Additional observations from a re-analysis of the deposited data

Results flagged for a closer look

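In 186 groups of 4 libraries, tested for 31 named genes, 5 libraries lay farther from the other 3 of their group than Dixon's 95% critical value allows, and chance gives about 1 in 20 groups. Gstm2 had 45.79 normalized counts in saline-treated control 117, compared with 72.4 to 75.0 in the other 3. Syt2 had 363.1 in PS saline 2, compared with 658 to 712 in the others. Plekhh1 had 325.4 in control DEX 112, compared with 246 to 256. Rpl17-ps8 had 12.78 in control DEX 122, compared with 4.77 to 6.02. Fkbp5 had 888.2 in saline-treated control 109, compared with 761 to 773, and all of these lay below the DEX-treated libraries.

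The DEX response differed between stressed and control mice by the interaction term itself in 27 named genes, given here on the log2 scale with calls from limma at an adjusted p under 0.1. The response was lower in stressed mice for Ppic (-1.57), H2-Eb1 (-1.30), Gstm2 (-1.29), Mmrn2 (-1.18), Twist1 (-1.14), Gm10134 (-1.14), Ly6a (-1.13), Sema3g (-1.11), Edn3 (-1.08), Hspb1 (-1.08), Lyve1 (-1.04) and Msln (-1.01). It was higher in stressed mice for Rps27rt (1.85), Syt2 (1.31), Fgf18 (1.25), Scn4b (1.22), Nefm (1.14), Nefh (0.99), Galnt6 (0.79), Mag (0.78), Astn2 (0.75), Adssl1 (0.72), Plekhh1 (0.70) and Mybpc1 (0.69). It was also higher for the pseudogenes Rpl36-ps2 (3.27), Rpl19-ps7 (2.95) and Rpl17-ps8 (2.79), whose reads may belong to other copies. Of these 27, Mybpc1 was called in all 24 fits that left out 1 library, and the others in 7 to 23.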

How the results depend on the processing

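All called genes kept the sign of their interaction in every alternative that tested them, which their choice by the interaction favours. Among the named genes not called, Hrh1, with an interaction near 0, changed sign in a fit that left out 1 library. Medians of lists took the opposite sign in 7 of 34 other settings for olfactory bulb and, of 36, in 6 for clock genes, 4 each for oligodendrocyte precursors and GABAergic neurons, 2 for striatum, and 1 each for monoamine receptors, glutamate and GABA receptor subunits and cytosolic ribosomal proteins. For the pooled interaction, with 142 genes called, the count was 497 with DESeq2 and 94 with edgeR on recovered reads, 1171 with array weights, 62 when genes averaging under 100 normalized counts were left out, 87 for genes with at least 10 reads in every library, 60 after quantile normalization (38 higher, 22 lower), 49 in AS alone, 0 in PS alone and 32 without the 4 libraries of array weight under 0.5. The last setting was added after the data were seen. It was 206 with 4 group means, 147 with TMM, 124 with library size as a covariate, 154 with a pseudocount of 8 and 129 with robust eBayes. The causes of these shifts were not tested, apart from the smaller numbers of genes or libraries. Stressed against control mice with saline gave 210 genes, and 487 with DESeq2, 2235 with array weights, 104 with the covariate and 881 without the 4 libraries. With DEX it gave 361, and 689, 980, 4 and 13 in the same settings. The covariate moves together with phenotype, since AS libraries were deeper. The DEX response of control mice gave 913 genes and 2093 with array weights. Leaving out 1 library gave 4 to 835 genes for the pooled interaction, 54 to 325 for stress with saline, 2 to 851 for stress with DEX, 611 to 1032 for DEX in control mice, 1790 to 2700 for DEX in stressed mice and 0 throughout for AS minus PS. No paired analysis was possible because mouse numbers do not recur across groups. Genes with few reads, such as the pseudogenes, have the least precise values.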
